A study of Homo sapiens with 6 samples.

Results

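The chromatin that flanks the centromeres was described here through 1007 pericentromeric bins, 3.80% of the 26484 autosomal bins of 100 Kb that had a compartment score in all 6 libraries. The bins were chosen by the presence of a score: each lay within 3 Mb of an edge of the longest run of consecutive bins without one on its chromosome, and had a score in every library. The sign and size of the score were not used in the choice. The remaining 25477 bins are called arm bins. The scores came from tethered chromatin capture (TCC), a form of Hi-C that counts contacts between pairs of genomic regions, in T47D, a human breast cancer line that expresses the estrogen receptor. The cells were deprived of hormone for 72 h and collected without estradiol (T0) or 1, 4, 16 and 24 h after addition of 100 nM estradiol, E2 (T1, T4, T16 and T24). The sixth library was made from T47D cells resistant to tamoxifen (TamR), which the labels describe as untreated and the study's methods as kept in tamoxifen. Each condition has 1 library, so that differences between conditions have no replicate check, and no test between conditions was possible.

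In this kind of data, regions that share contact partners fall into compartment A, which is known as open and gene-rich, or compartment B, which is known as compact and often lies at the nuclear edge or around the nucleoli. Human centromeres are built on alpha satellite, a tandem repeat, and are flanked by heterochromatin with further satellites, segmental duplications and clusters of gene families. In interphase nuclei the centromeric regions of different chromosomes often gather near nucleoli or the nuclear periphery. The score is the first eigenvector of the contacts between chromosomes, where a positive value places a bin in A, a negative value in B, and 0 means that no value was given. Scores are printed multiplied by 1000. Each library was scaled by itself, so that the sign of a score is comparable between libraries and its size only with that limit.

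The runs without a score overlapped the longest stretch of unknown bases of the chromosome in the hg19 sequence on all 22 autosomes. On chromosomes 13, 14, 15, 21 and 22 the run began at the first bin, so that there was a single flank, and 39 flanks resulted. A flank is named by its chromosome and by p or q for the side before or after the run. The 14 bins of flank 21q lay ahead of a further unscored stretch at chr21:11200001-14300000, so that q there gives the side of the run and not the chromosome arm. The flanks hold 1170 bins, of which 163 were left out for lack of a score in at least 1 library, and 56 of the 163 consisted of unknown bases over more than 50% of their length. A score in all 6 libraries was present in 86.1% of the bins in the flanks and in 98.6% of the bins in the arms. All 30 bins had a score in 21 flanks, while flank 9p kept 1 bin and flank 9q kept 7.

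The retained bins reach the edge of the centromeric repeats, and for that reason examples of alpha satellite within them are shown. The box bound by CENP-B, a DNA-binding protein of centromeres, was searched on both strands as TTCG, any 4 bases, A, any 2 bases and CGGG. It occurred in 58 pericentromeric bins (5.76%) against 703 arm bins (2.76%), and 23 pericentromeric bins against 3 arm bins held 10 or more copies. The lines give the hg19 sequence around the first box of the richest bin on each of 3 chromosomes, with the box in capitals. They lie at chr1:121401096-121401266 on the minus strand, chr11:48931865-48932035 on the minus strand and chr7:61967379-61967549 on the plus strand.
chr1, minus strand: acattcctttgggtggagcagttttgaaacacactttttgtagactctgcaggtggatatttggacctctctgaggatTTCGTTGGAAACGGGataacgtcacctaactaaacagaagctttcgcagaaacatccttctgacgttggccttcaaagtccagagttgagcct
chr11, minus strand: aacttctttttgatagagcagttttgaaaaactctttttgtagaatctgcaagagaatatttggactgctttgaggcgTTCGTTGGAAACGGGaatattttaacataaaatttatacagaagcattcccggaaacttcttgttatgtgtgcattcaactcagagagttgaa
chr7, plus strand: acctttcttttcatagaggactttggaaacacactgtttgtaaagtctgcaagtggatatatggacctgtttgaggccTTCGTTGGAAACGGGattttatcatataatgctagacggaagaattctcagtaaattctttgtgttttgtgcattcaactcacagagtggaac
The chromosome 1 bin, chr1:121400001-121500000, held 119 boxes and was in B in every library, with scores of -2.86 at T0, -2.51 at T1, -1.997 at T4, -2.53 at T16, -1.56 at T24 and -3.18 in TamR. The chromosome 11 bin, chr11:48900001-49000000, held 24 boxes and lay 2.6 Mb from the edge. Its scores were -5.68 at T0, -5.58 at T1, -6.11 at T4, -5.25 at T16, -5.19 at T24 and -5.05 in TamR. The chromosome 7 bin, chr7:61900001-62000000, held 34 boxes, and its scores were -6.25 at T0, -5.90 at T1, -5.81 at T4, -5.79 at T16, -4.98 at T24 and -7.94 in TamR. All 3 bins were in B in all 6 libraries, and in each of them T24 was the highest of the 5 parental libraries. The 3 chromosomes were picked as examples and are not the 3 with the most boxes in their pericentromeric bins. Other bins rich in boxes did not all share this order. In a bin with 47 boxes elsewhere, the score was -1.98 at T4 and -3.03 at T24. In another with 43 boxes, T24 (-3.92) was the lowest parental library. Of the 23 pericentromeric bins with 10 or more boxes, T24 was above T0 in 20.

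Most pericentromeric chromatin was in compartment B. At T0, 374 of the 1007 bins were in A, or 37.1% (95% Wilson interval 34.2 to 40.2%), against 47.3% of the arm bins (46.7 to 47.9%). The intervals cover counting error over bins alone, and they are too narrow because neighbouring bins are not independent. In TamR the share in A was 41.8%, and in the E2 series 38.2% (T1), 38.03% (T4), 38.2% (T16) and 41.4% (T24). The arm share was 48.5% in TamR and 47.2% (T1), 48.0% (T4), 47.4% (T16) and 44.9% (T24) in the series. The pericentromeric share was therefore below the arm share in each of the 6 libraries, and the gap was smallest at T24, where the pericentromeric share was above its T0 value and the arm share below. The median score was -2.83 at T0 in the pericentromeric bins and -0.53 in the arm bins. In all 6 libraries 545 pericentromeric bins (54.1%) stayed in B, against 44% of all bins, and 342 (34.0%) stayed in A, against 39%, so that 88.1% kept a single compartment, against 82.8% of the arm bins and 83% of all bins.

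The preference for B was concentrated next to the run without a score. Within 0.5 Mb of the edge, 9.94% of the bins (17 bins) were in A at T0, and the median score was -5.67. The share rose to 22.8% between 0.5 and 1 Mb, 40.6% between 1 and 1.5 Mb and 47.3% between 1.5 and 2 Mb. From 2 to 2.5 Mb it was 52.4%, and from 2.5 to 3 Mb it was 49.4%, near the 48.0% seen both from 3 to 5 Mb and from 5 to 10 Mb. Of the 37 bins that touched the edge, 1 was in A, and none of the 37 had another compartment in TamR than at T0. Just inside the 3 Mb limit 17 of 36 bins were in A with a median of -0.21, and just outside it 18 of 35 with a median of 0.10. The shares on the sides of the limit were thus close, and the inner 1 Mb differed most from the arms. Protein-coding genes followed the same course, with 0.187 gene starts per bin within 0.5 Mb and 0.879 per bin from 2.5 to 3 Mb.

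**Figure D1:**
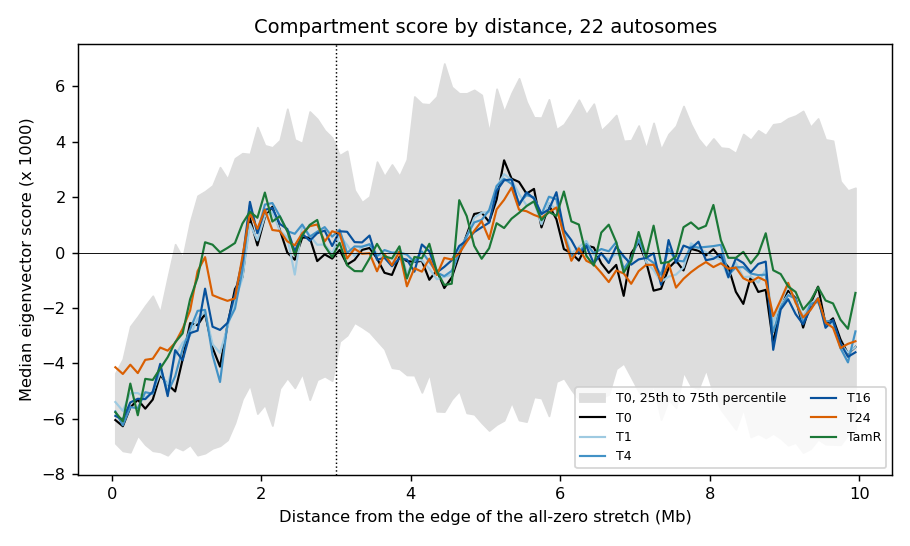
Median eigenvector score (x 1000, vertical axis) of the autosomal bins at each distance in Mb from the edge of the longest run without a score (horizontal axis), with 1 line per library and the 25th to 75th percentile of T0 in grey. The dotted line marks 3 Mb. All 6 lines are negative next to the edge and come near 0 by 2 Mb, and T24 lies above the other parental libraries within 0.5 Mb.

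Taken over all bins together, the base composition was close to that of the arms. The median GC content was 40.3% in the pericentromeric bins and 39.9% in the arm bins, the median number of HindIII sites (AAGCTT, the enzyme used to cut the DNA) was 29 in both, and the mean number of protein-coding gene starts per bin was 0.657 against 0.714. At equal GC content the pericentromeric bins were less often in A in each of 6 bands. Among bins of 45 to 60% GC, 126 of 168 pericentromeric bins were in A at T0, against 91.2% of 4906 arm bins. Among bins of 36 to 38% GC the shares were 10.8% and 18.4%. The Pearson correlation of the T0 score with GC content across bins was 0.60 in 1007 pericentromeric bins and 0.72 in 25477 arm bins, which are not independent of each other. Of the 23 bins with 10 or more CENP-B boxes, 1 was in A at T0, and their median score was -5.11. The 18 bins with 10 or more pairs of adjacent CATTC units, the unit of the classical satellites, counted on both strands, were all in B at T0 with a median of -7.14.

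Chromosomes differed widely in the compartment of their pericentromeric bins. The share in A at T0 ran from 0% on chromosomes 3 and 21 to 83.3% on chromosome 18. It was below the arm share of the same chromosome on 14 chromosomes and above it on chromosomes 1, 2, 4, 8, 13, 17, 18 and 20. Chromosome 18, a gene-poor chromosome, had 83.3% of its pericentromeric bins in A against 27.3% of its arm bins. Chromosome 19, which is dense in genes, had 6 of its 60 pericentromeric bins in A against 88.3% of its arm bins. On these chromosomes the pericentromeric bins were thus in the compartment that was the minority on the arms. Of the 16 chromosomes with a flank of at least 10 bins on each side, chromosomes 1, 17, 18 and 20 were mostly A on both sides and chromosomes 3, 5, 6, 7, 11, 12, 16 and 19 mostly B on both. The sides differed on chromosomes 2, 4, 8 and 10.

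Among the 37 flanks with at least 10 bins, 11 were wholly in B at T0, of which 9 remained wholly in B in all 6 libraries, 15 were mostly in A, and 1 was wholly in A. The single flank wholly in A was 18q (chr18:18500001-21500000), whose 30 bins had a median of 5.62 at T0, 4.75 at T1, 5.17 at T4, 4.88 at T16, 4.75 at T24 and 6.22 in TamR. The flank starts with ROCK1, a kinase of the actin cytoskeleton, GREB1L, a paralogue of the estrogen-regulated gene GREB1, and ESCO1, an acetyltransferase of cohesin. The bin with the start of ROCK1 scored 3.63 at T0, 3.32 at T1, 3.67 at T4, 3.84 at T16, 3.42 at T24 and 5.15 in TamR, although it lay in the second bin from the run without a score. In flank 17q (chr17:25300001-28300000) 28 of 30 bins were in A with a median of 9.01 at T0, 9.34 at T1, 9.02 at T4, 9.40 at T16, 9.06 at T24 and 9.02 in TamR. That flank holds 53 gene starts, among them WSB1, part of a ubiquitin ligase, KSR1, a scaffold of the MAP kinase cascade, LGALS9, a galectin, and NOS2, the inducible nitric oxide synthase. In flank 2q (chr2:95300001-98300000), with TEKT4, a tektin of cilia, and MRPS5 of the mitochondrial ribosome, 26 of 28 bins were in A, and the median was 6.59 at T0, 6.49 at T1, 6.12 at T4, 6.28 at T16, 6.74 at T24 and 6.75 in TamR.

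Among the 11 flanks wholly in B at T0, which tie in their share, flanks 6q, 10p and 11p were picked for their low medians, and they had no bin in A in any library. Flank 6q (chr6:61900001-64900000) holds 6 gene starts, with KHDRBS2, an RNA-binding protein, and PTP4A1, a phosphatase, among them. Its median was -7.33 at T0, -7.51 at T1, -7.73 at T4, -7.50 at T16, -6.63 at T24 and -7.02 in TamR. Flank 10p (chr10:36100001-39100000) holds ANKRD30A, known as a breast differentiation antigen, and 4 zinc finger genes. Its median was -7.24 at T0, -7.02 at T1, -7.16 at T4, -7.32 at T16, -5.96 at T24 and -7.71 in TamR. Flank 11p (chr11:48600001-51600000), with FOLH1, the prostate-specific membrane antigen, and genes of the TRIM and olfactory receptor families, had medians of -7.15 at T0, -6.76 at T1, -7.19 at T4, -6.77 at T16, -5.46 at T24 and -7.17 in TamR. In each of these 3 flanks T24 was the highest of the 6 medians.

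**Figure D2:**
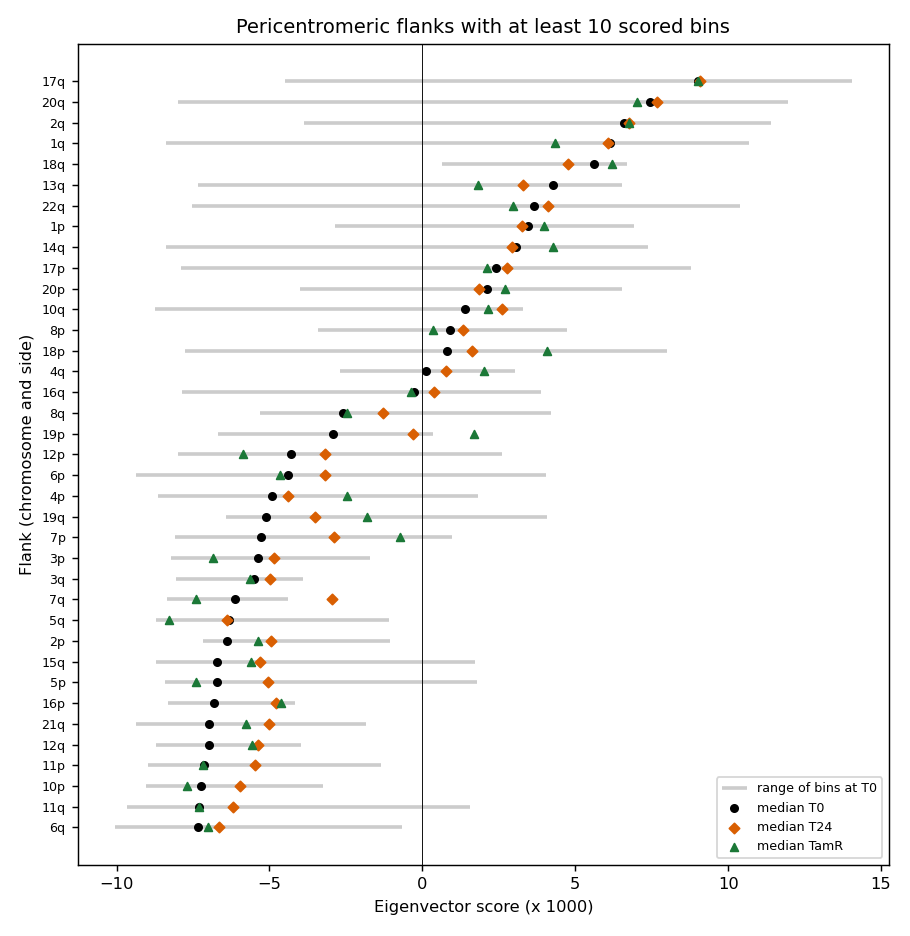
Eigenvector scores (x 1000, horizontal axis) of the 37 flanks with at least 10 bins (vertical axis, chromosome and side), with the range of the bins at T0 as a bar and the medians of T0, T24 and TamR as points. Flank medians at T0 run from -7.33 in 6q to 9.01 in 17q, and 19p has the widest gap between T0 and TamR.

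Neighbouring bins differed slightly more in the flanks than in the arms. The median absolute difference between adjacent bins at T0 was 0.782 over 926 pairs, against 0.700 over 25327 pairs in the arms, a ratio of 1.12. In the other parental libraries it lay between 0.632 (T24) and 0.681 (T16), against 0.576 to 0.587 in the arms, and in TamR 0.703 against 0.641. The flank value was above the arm value in each of the 6 libraries, which score the same bins, and T0 had the highest value of both. By chromosome, the T0 value of the flanks was above that of the arms on 14 of 22 chromosomes and below it on 8. Without chromosome 2 the ratio at T0 was 1.08. By distance, the T0 value was 1.07 within 0.5 Mb, 0.856 from 0.5 to 1 Mb and between 0.690 and 0.808 beyond. The compartment changed between adjacent bins in 6.16% of the flank pairs and 5.33% of the arm pairs at T0. The spread between flanks was wider than within them: the SD of the 37 flank medians at T0 was 5.14, and the median SD among the bins of a flank was 2.71. The SD over all pericentromeric bins was 5.46, against 6.05 in the arms.

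After E2, few pericentromeric bins changed compartment up to 16 h, and at 24 h the changes ran mostly from B to A. From T0, 21 bins (2.09%) had changed at T1, 27 (2.68%) at T4 and 27 (2.68%) at T16, against a background over all bins of 3.12%, 3% and 3.8%. Of these, 16, 18 and 19 moved from B to A (against 1.52%, 1.87% and 1.95% of all bins) and 5, 9 and 8 from A to B (against 1.6%, 1.14% and 1.85%). At T24, 51 bins (5.06%) had changed, close to the background of 5.17%, and 47 of these had moved from B to A while 4 had moved from A to B. Over all bins the share from B to A at T24 was 1.52% and from A to B 3.65%, so that the directions were opposite. Of the 633 bins in B at T0, 7.42% (5.63 to 9.73%) were in A at T24, against 2.64% (2.39 to 2.93%) of the arm bins in B. Of the 374 bins in A at T0, 1.07% (0.417 to 2.72%) were in B at T24, against 7.98% (7.51 to 8.48%) of the arm bins in A. At T1, T4 and T16 between 2.53 and 3.00% of the pericentromeric B bins were in A. Most of these crossings involved a weak score in at least 1 library. When each bin weaker than the 10th percentile of any library was dropped, 818 pericentromeric bins were left. Of these, 0.244% had moved from B to A at T24 and 0% from A to B. The filter drops bins near the border by design, in the arms as well, and the arm shares at T24 under it were not computed.

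**Figure D3:**
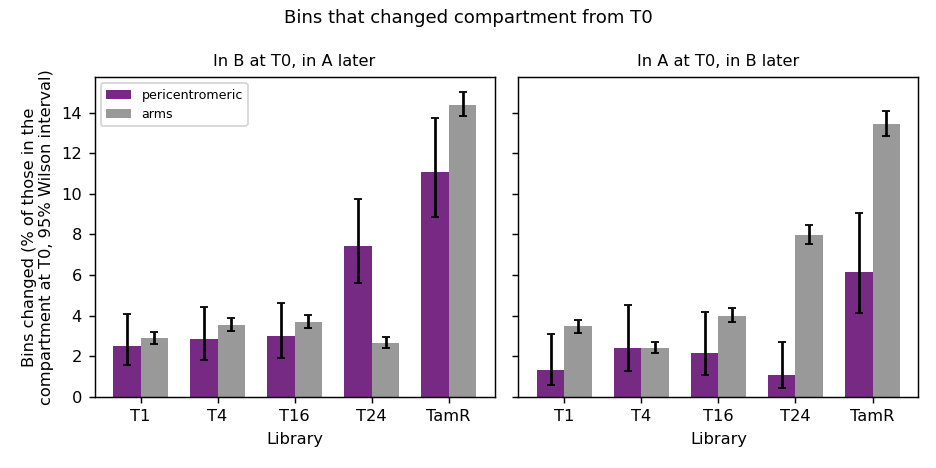
Share of bins that were in B at T0 and in A later (left) and in A at T0 and in B later (right), in percent of the bins in that compartment at T0, for the pericentromeric bins (purple) and the arm bins (grey) in each library on the horizontal axis; error bars are 95% Wilson intervals. At T24 the pericentromeric bar is above the arm bar on the left (7.42 against 2.64%) and below it on the right (1.07 against 7.98%).

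The change at T24 was also present in bins that did not cross the border. The score was above its T0 value in 745 of 1007 pericentromeric bins (74.0%) with a median difference of 0.75, while in the arms 47.8% of bins were above T0 and the median difference was -0.06. The median difference from T0 was 0.10 at T1, 0.01 at T4 and 0.10 at T16 in the pericentromeric bins. Relative to T16, the library nearest in time, T24 was higher in 74.6% of the pericentromeric bins, with a median of 0.61. In 587 bins (58.3%) T24 was above each of T0, T1, T4 and T16, against 29.5% of all bins, and in 101 (10.03%) it was below each of them, against 31.9% of all bins. The rise from T0 was mainly in the bins in B at T0. Of the 633 bins in B, 564 were above T0 at T24 with a median difference of 1.27, and of the 374 in A, 181 were above T0 with a median of -0.07. The corresponding medians in the arms were 0.11 for B bins and -0.31 for A bins, both below the pericentromeric medians.

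Bins with strongly negative scores also rose in the arms at T24, so the comparison was repeated at equal T0 scores. T0 enters both the grouping and the difference, so that low T0 scores and high T24 scores are not separated by it. Among bins scoring below -7 at T0, the median difference was 1.38 in the pericentromeric bins and 0.64 in the arms. Between -7 and -5 the values were 1.53 and 0.12, between -5 and -3 they were 0.88 and -0.13, and between -3 and -1 they were 1.02 and -0.32. Weak scores and weaker A bins kept this order. Between -1 and 1 the values were 0.63 and -0.58, between 1 and 3 they were 0.10 and -0.65, and between 3 and 5 they were -0.16 and -0.63. Between 5 and 7 the order was turned, with -0.63 in the pericentromeric bins and -0.49 in the arms, and above 7 it was turned as well, with 0.03 and 0.40. In each of 6 GC bands the pericentromeric median was above the arm median, with the narrowest gap at 45 to 60% GC, where it was 0.38 against 0.33. When the scores were replaced by percentile ranks within each library, the median difference between T24 and T0 was 4.46 percentile points higher in the pericentromeric bins than in the arms. For T0 scores below -7, the median differences at T1, T4 and T16 were 0.36, 0.15 and 0.17, against 0.12, -0.02 and 0.09 in the arms. From -7 to -5 they were 0.44, 0.13 and 0.15, against -0.01, -0.13 and -0.05.

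The rise at T24 was graded by distance. It had a median of 1.72 within 0.5 Mb, where 91.8% of the bins were above T0, then 1.19 from 0.5 to 1 Mb, 0.83 from 1 to 1.5 Mb and 0.47 from 1.5 to 2 Mb. It was 0.19 from 2 to 2.5 Mb and 0.28 from 2.5 to 3 Mb, the level also found from 3 to 5 Mb (0.25) and from 5 to 10 Mb (0.20), and -0.14 beyond 20 Mb. The share of bins in B also fell with distance. Among bins in B at T0 the median was 1.82 within 0.5 Mb and 0.68 from 2.5 to 3 Mb. Among bins in A at T0 it was 0.15 (17 bins) and -0.14 (86 bins). Within 0.5 Mb the earlier libraries were also above T0, but less so, with medians of 0.49 at T1, 0.25 at T4 and 0.23 at T16. The 140 bins within 0.5 Mb without a CENP-B box had a median T24 difference of 1.83, and the 23 bins with 10 or more boxes one of 1.03. Alpha satellite can lack the box, and its content in these bins was not measured.

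**Figure D4:**
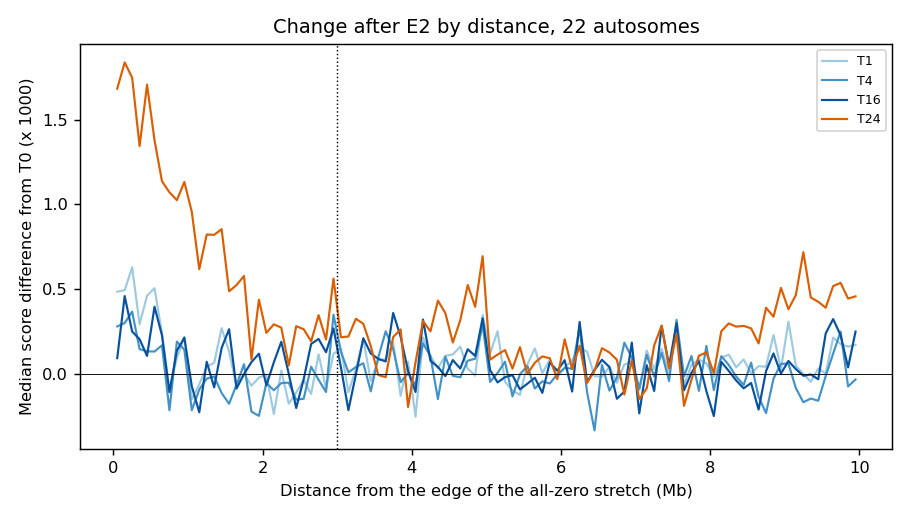
Median difference in score from T0 (x 1000, vertical axis) at T1, T4, T16 and T24 for autosomal bins at each distance in Mb from the edge of the run without a score (horizontal axis). T24 has a median of 1.72 over the first 0.5 Mb and falls to 0.19 between 2 and 2.5 Mb, and the 3 earlier libraries stay at or below 0.49 as medians over the first 0.5 Mb.

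Across chromosomes, 34 of the 37 flanks with at least 10 bins had a median T24 score difference above 0. The exceptions were 1p (-0.15), 13q (-0.66) and 18q (-0.71), each of which had a positive median score at T0. The largest medians were in 19p (2.66, with 30 of 30 bins above T0), 7q (2.56, 22 of 22), 21q (2.21, 14 of 14), 16p (1.84, 21 of 21) and 11p (1.80, 26 of 27). On 17 of 22 chromosomes the pericentromeric median was above the arm median, and on chromosomes 1, 13, 18, 20 and 22 it was below. The 47 bins that went from B to A at T24 lay in 14 flanks, with 12 of them in 19p, 6 in 7p and 5 in 4q. Without chromosome 19, 34 bins went from B to A and 4 from A to B, and 72.8% of the bins were above T0 with a median of 0.68. The arms of chromosome 19 rose at T24 as well. There 85.9% of the bins were above T0 with a median of 1.08, the highest arm values of any chromosome.

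Bins that left their T0 compartment at 1 to 3 of the 4 E2 times were called mixed. There were 52 of these (5.16%), against 5.62% of all bins, and 26 bins (2.58%) differed from the other 4 parental libraries at T24 alone, against 2.01% of all bins. Without T24 the mixed share was 2.48%, with a difference from the arms of -0.787 points. In 11 bins (1.09%) a B bin was in A at all 4 E2 times, against 0.634% of all bins, and 1 bin moved from A to B for all of them, against 0.785%. Whether the mixed share lay below or above that of the arms depended on the settings. The longest run of mixed bins was chr19:23700001-24300000, 6 bins in flank 19p with the starts of ZNF675, ZNF681, ZNF726 and ZNF254. Its mean score was -1.25 at T0, -1.06 at T1, -1.63 at T4, -0.93 at T16, 1.56 at T24 and 1.06 in TamR, so that T24 and TamR stood apart from the other libraries. The next, chr16:47300001-47800000, had 5 bins with PHKB, a subunit of phosphorylase kinase, and ITFG1, and stayed near the border with means of 0.14 at T0, 0.30 at T1, -0.001 at T4, -0.47 at T16, 0.37 at T24 and -0.50 in TamR. The run chr20:25800001-26200000 had 4 bins without a protein-coding gene start and means of -1.50 at T0, -1.13 at T1, -1.44 at T4, -0.97 at T16, 0.81 at T24 and 0.02 in TamR.

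In TamR fewer pericentromeric bins changed compartment than in the arms. Relative to T0, which is also the reference of the E2 comparisons, 93 bins (9.24%, 7.60 to 11.2%) had the other compartment, against 13.8% of all bins and 13.96% of the arm bins. Of these 70 moved from B to A (6.95%, against 7.56% of all bins) and 23 from A to B (2.28%, against 6.22%). Of the A bins 6.15% (4.13 to 9.06%) left A, against 13.5% (12.9 to 14.1%) in the arms. Of the B bins 11.1% (8.85 to 13.7%) left B, against 14.4% (13.8 to 15.01%), so that the gap was wider for A bins. Bins close to the border change most readily, and at equal absolute T0 score the order was kept for the weaker scores: 28.7% against 37.6% for scores below 2.20 in size, and 9.95% against 16.0% from 2.20 to 4.34. Among the strongest scores it was 0.990% against 0.670%, with 2 pericentromeric bins changed. The share did not follow distance evenly. From 3 to 5 Mb 19.8% of 686 bins had changed, from 5 to 10 Mb 10.4% of 1890 and from 10 to 20 Mb 12.0% of 3794, and taken over all bins within 5 Mb of the edge it was 13.5%. When each bin weaker than the 10th percentile of any library was dropped, 2.69% of the 818 pericentromeric bins left had changed, 2.57% from B to A and 0.122% from A to B. This filter drops bins near the border in the arms as well, and the difference from the arms in the share changed was then -3.06 points. Arm bins weighted to the absolute T0 scores of the pericentromeric bins changed in 12.9%.

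A stricter count required that the 5 parental libraries shared a compartment and that TamR had the opposite. It gave 56 pericentromeric bins (5.56%), against 9.95% of all bins, of which 38 went from B to A (3.77%, against 6%) and 18 from A to B (1.79%, against 3.95%). TamR scored above all 5 parental libraries in 327 bins (32.5%, against 35.2% of all bins) and below all 5 in 361 (35.8%, against 43.7%). The scores correlated across the 1007 bins with a Pearson r of 0.91 to 0.93 between TamR and the parental libraries and 0.98 to 0.99 among the parental libraries. These bins share libraries and neighbours and are no replicates.

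The changes in TamR were unevenly distributed. In 18 of the 37 flanks no bin changed, and the 5 flanks with the most held 53 of the 92 changed bins, or 57.6%. Chromosome 19 held 32 of the 93 changed bins, and flank 19p alone 26 of its 30, of which 25 moved from B to A. The direction was also that of the chromosome 19 arms, where 36 of 497 bins (7.24%) had changed, 36 from B to A and 0 from A to B. Without chromosome 19, 61 of 947 bins (6.44%) had changed, against 14.1% of the arm bins. The share changed was below that of the arms on 16 chromosomes and above on chromosomes 8, 14, 15, 19, 21 and 22. Several of these rest on few bins, with 1 changed bin of 14 on chromosome 21, 2 of 16 on chromosome 15 and 2 of 24 on chromosome 22. On chromosome 14 it was 6 of 22, and on chromosome 8 the shares were close (13.3% against 12.9%).

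The 38 bins that went from B to A against all parental libraries formed 14 runs, and the 3 runs of 5 bins or more held 24 of them. The longest was chr19:22000001-23300000 in flank 19p, 13 bins at 1.3 to 2.6 Mb from the edge with 11 gene starts, among them the zinc finger genes ZNF43, ZNF208, ZNF257, ZNF676 and ZNF729. Its mean score was -5.002 at T0, -4.71 at T1, -5.21 at T4, -4.48 at T16, -1.93 at T24 and 1.40 in TamR. The highest parental score in any of its bins was -0.34 and the lowest TamR score 0.012, so that the ranges did not overlap, which the choice of the run fixed. T24 was above the other parental libraries in the mean of the run, which the choice did not fix.

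The next run, chr14:20200001-20800000, had 6 bins and 18 gene starts, beginning with the olfactory receptor genes OR4Q3, OR4M1, OR4K3, OR4K2 and OR4K5. Its mean was -6.17 at T0, -5.56 at T1, -5.94 at T4, -5.79 at T16, -4.41 at T24 and 1.57 in TamR. The last, chr19:29500001-30000000 in flank 19q, had 5 bins and the start of UQCRFS1, the iron-sulfur subunit of respiratory complex III. Its mean was -3.07 at T0, -2.38 at T1, -2.62 at T4, -2.17 at T16, -1.54 at T24 and 1.89 in TamR. In both runs TamR was positive and T24 the least negative of the parental libraries.

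The 18 bins that went from A to B formed 13 runs, 11 of a single bin. The longest was chr6:56100001-56500000, 4 bins in flank 6p with the start of COL21A1, a collagen. Its mean score was 2.41 at T0, 2.26 at T1, 2.37 at T4, 2.07 at T16, 2.20 at T24 and -1.61 in TamR. The next was chr8:41100001-41400000, 3 bins in flank 8p with SFRP1, a secreted inhibitor of Wnt signalling, GOLGA7, a partner of a palmitoyltransferase, and GINS4, a subunit of the replicative helicase. Its mean was 0.98 at T0, 1.02 at T1, 1.56 at T4, 1.19 at T16, 1.26 at T24 and -0.86 in TamR. The bin with the start of SFRP1 scored 0.55 at T0, 0.63 at T1, 1.53 at T4, 1.21 at T16, 1.30 at T24 and -1.61 in TamR. Among the single bins the widest difference was at chr8:43500001-43600000, without a protein-coding gene start, with 0.20 at T0, 0.52 at T1, 1.01 at T4, 0.92 at T16, 0.92 at T24 and -6.58 in TamR. The 4 bins of 8p nearest to the run without a score were at -6.53, -7.21, -6.58 and -6.88 in TamR, each below all 5 parental libraries, whose scores there lay between -2.81 and 1.01.

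**Figure D5:**
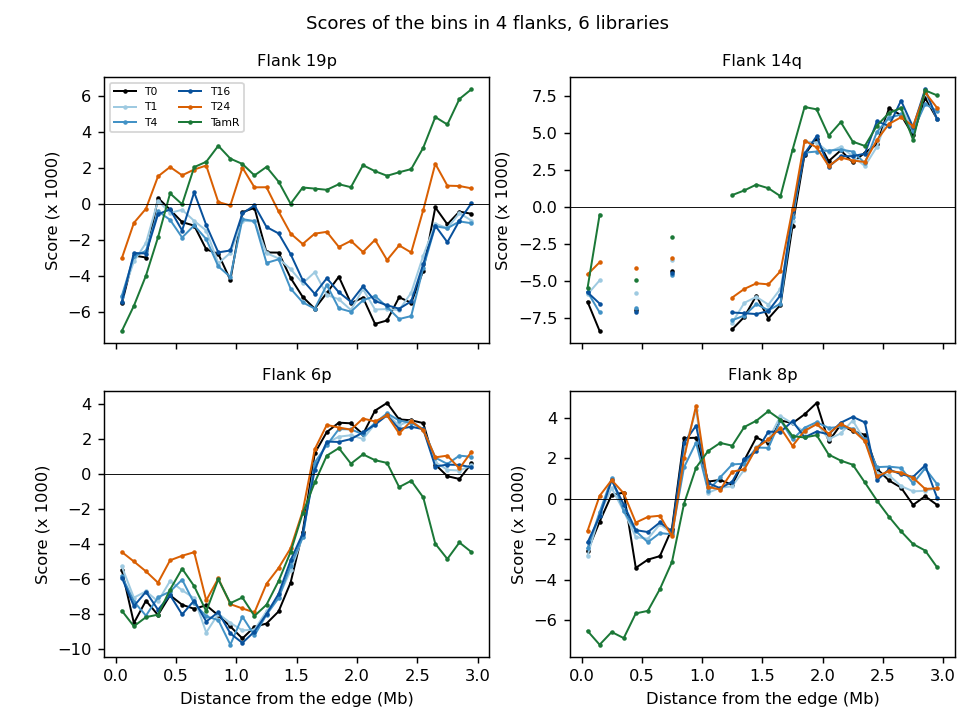
Scores (x 1000, vertical axes) of the scored bins of flanks 19p, 14q, 6p and 8p by distance in Mb from the edge of the run without a score (horizontal axes), with 1 line per library and gaps where a bin had no score. In 19p TamR is positive from 0.6 Mb outward and T24 lies between TamR and the other libraries beyond 0.6 Mb, while in 6p and 8p TamR lies below the parental libraries beyond 2 Mb.

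The zinc finger and olfactory receptor genes of the pericentromeric bins were less often in A at T0 than the other genes there. The pericentromeric bins hold 662 protein-coding gene starts, of which 421 (63.6%) lay in A at T0, against 79.0% in the arms. Of 47 zinc finger (ZNF) genes, a family of DNA-binding proteins many of which silence transposable elements, 14 were in A at T0, 14 at T1, 13 at T4, 14 at T16, 22 at T24 and 31 in TamR. In the arms 85.8% of 452 ZNF genes were in A at T0 and 92.7% in TamR. The 19 ZNF genes of flank 19p accounted for most of this course, with 1 in A at T0, 1 at T1, 0 at T4, 2 at T16, 8 at T24 and 17 in TamR. The bin with the start of ZNF208 scored -5.50 at T0, -4.93 at T1, -6.23 at T4, -5.41 at T16, -2.70 at T24 and 1.94 in TamR. The bin of ZNF675 scored -2.52 at T0, -1.48 at T1, -1.95 at T4, -1.17 at T16, 2.14 at T24 and 2.35 in TamR. T24 crossed the border in the bin of ZNF675 and not in that of ZNF208. The 6 ZNF genes of flank 7q and the 4 of flank 10p were in B in all libraries. In each library 4 of the 5 ZNF genes of flank 10q and the 3 of flank 2q were in A. The course of 19p was thus not shared by the family.

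Of 79 olfactory receptor genes, which are expressed in the nasal epithelium, 2 were in A at T0 and at each E2 time, and 19 in TamR. In the arms 17.9% of 324 olfactory receptor genes were in A at T0 and 32.7% in TamR. All 19 in A in TamR lay in flank 14q, where the family has 19 members, while the 50 of 11q, the 5 of 11p and the 5 of 15q stayed in B in all 6 libraries. Neighbouring genes of a cluster share bins, the 79 genes lying in 28 bins, so that these counts rest on few independent regions. Of the smaller families, GOLGA6L22 and GOLGA6L1 share a bin that scored -2.59 at T0, -0.99 at T1, -2.08 at T4, -1.61 at T16, -1.87 at T24 and 0.32 in TamR. POTEC, of a family expressed in testis, prostate and other tissues, lay in a bin of flank 18p with -1.88 at T0, -2.16 at T1, -1.68 at T4, -1.30 at T16, -1.27 at T24 and 1.15 in TamR. POTEA, of the same family, stayed in B with -2.83 at T0 and -4.46 in TamR. The genes NBPF9 and NBPF10 were in A in T0 and TamR, and 4 of the 5 genes of the ANKRD20, ANKRD26, ANKRD30 and ANKRD36 families were in A in both. The 525 other genes included 399 in A at T0 and 408 in TamR. ERBB2, ESR1, PGR, GREB1 and TFF1, genes of hormone and growth factor response in breast cancer, started in none of the pericentromeric bins.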

How the data were processed

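TCC libraries of T47D cells, 1 per condition, were analysed. According to the study's methods, the authors aligned reads to hg19, filtered and corrected the contact matrix, removed contacts within chromosomes and computed the first eigenvector with HiCLib. The deposited value is a score per bin of 100 Kb. No contact counts were used here, so that the depth of each library is not known here. Signs were used as deposited, and autosomal bins with a score of 0 in any library were left out. GC content and motifs were taken from the GRCh37 sequence, whose chromosome lengths match the bins, and the starts of protein-coding genes from GENCODE v44lift37. The sequence does not mark repeats, so that repeat content was not computed. Named were the 3 flanks with the highest and the 3 with the lowest share of A at T0 (ties by the median score), the 3 longest runs of each kind, and at most 5 genes of each. Single gene bins and further flanks beyond these, and the T24 comparisons, were chosen after their values were seen. The members and lists were chosen with earlier results of these data known. Other limits, borders, filters and references were tried, and each chromosome was left out in turn. Python 3.11.15, numpy 2.4.6, pandas 2.3.3, scipy 1.17.1 and matplotlib 3.10.9 were used, and the code was tested on simulated tracks.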

Additional observations from a re-analysis of the deposited data

Results flagged for a closer look

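In 3 of 14 checks (the highest and the lowest library in each of 7 measures over the pericentromeric bins), a single library stood far from the other 5. The 6 libraries are 6 conditions and not replicates. Chance alone gives such a gap in about 1 of 20 groups of 6 independent values, which is a rate per measure and not per check. The 7 measures were taken over the same bins, so that they are not independent, and no chance rate can be given for the 3. The lower quartile of the score was -4.93 at T24, against -6.47 to -6.07 in the others. The SD of the score was 4.90 at T24, against 5.27 to 5.46. The mean correlation with the other 5 libraries was 0.919 for TamR, against 0.973 to 0.977. Whether the T24 and TamR libraries differ in depth or preparation was not tested.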

How the results depend on the processing

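No paired analysis was possible because every condition is a single library. With 1 Mb in place of 3 Mb, the share in A at T0 was 16.2% (difference from the arms -31.1), the share changed in TamR 7.21% (difference -6.65), the share moved from B to A 5.41%, and the T24 median difference from the arms 1.55. With 5 Mb these were 41.5% (difference -5.78), 13.5% (difference -0.269), with 5.32% from A to B in TamR and 1.48% from A to B at T24. The mixed share differed from the arms by -0.473 points, and was above them at 1 Mb (1.00), at 5 Mb (1.00), with the border at each library's median (2.13, share 7.25%), with weak scores left out (0.239) and at equal absolute T0 scores (0.298), so no direction can be given for it. Leaving out each chromosome in turn, the lowest values were -13.7 for the difference in A, 6.44% and -7.65 for the share changed, 4.12% from B to A, 3.91% and -1.77 for the mixed share, and 0.206 for the TamR median difference from the arms; the values of 6.44, 4.12 and 3.91% were without chromosome 19. With equal weight per chromosome the difference in A was -15.1. When each bin weaker than the 10th percentile of any library was dropped, 2.69% changed in TamR (difference from the arms -3.06). Of the bins left, 2.57% moved from B to A in TamR and 0.122% from A to B, and 0.244% were mixed. At T24 0.244% moved from B to A and 0% from A to B, and the TamR median difference was 0.214. Without T24, 2.48% were mixed (difference from the arms -0.787). Of 144 further values, 110 were counted as the same, 29 moved and 5 changed sign. A share or difference of shares counted as the same inside the 95% Wilson interval over bins of the reported value, which is too narrow. A median or ratio counted as the same within a fixed factor of the reported one. With percentile ranks, the TamR and T24 medians counted as the same if the sign was kept. These counts therefore measure no spread between repeats. The depth of the libraries limits every score by an unknown amount, and sizes are scaled within a library.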
